A study of Medicago truncatula with 18 samples.

Results

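The comparison described here is the change of the photoperiod effect between 2 h and 4 h after dawn in leaves of the legume Medicago truncatula, tested gene by gene as the LD against SD ratio at ZT4 set against the same ratio at ZT2. ZT, zeitgeber time, is the number of hours after lights on. It used 12 of the 18 RNA-Seq libraries of the series, chosen by their labels, namely all libraries of SD (short days) and LD (long days) at ZT2 and at ZT4. The study shifted plants from SD to LD and followed leaf transcripts in the first hours of the day to look for genes that might act upstream of the FT-like flowering genes.

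All plants were of the cultivar Jester, carried no transgene or mutation, and had been vernalised (kept cold as germinated seed) before they were grown in SD of 8 h light and 16 h dark until day 10. Plants labelled SD stayed in those days, and plants labelled LD were moved to days of 16 h light and 8 h dark with dawn unchanged. At ZT2 the plants were 13 days old, the LD plants had spent 3 days in LD, and libraries came from the ScriptSeq kit. At ZT4 the plants were 15 days old, the LD plants had spent 5 days in LD, and libraries came from the TruSeq Stranded mRNA kit. Each of the 4 groups had 3 libraries, and each library pooled the first trifoliate leaves of 2 plants, so a value is an average over leaf cell types, in which fewer cells of a type and less RNA per cell cannot be told apart. Any effect of kit, age or experiment that adds the same log amount in SD and LD cancels in this comparison. An effect that differs between SD and LD does not cancel, and it cannot be told apart from time of day.

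In plants the circadian clock is a loop of transcription factors that peak one after the other, with LHY in the morning, the PRR genes through the day and TOC1 with the evening complex of ELF3, ELF4 and LUX around dusk, as worked out in Arabidopsis thaliana. Light read by phytochromes and cryptochromes sets this clock, and the clock in turn times GI and FKF1, which in Arabidopsis remove the CDF repressors of CONSTANS and FT. FT proteins move from the leaf to the shoot apex and start flowering.

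Totals of estimated counts lay between 18164333 and 19560647 at ZT2 and between 20690658 and 23201592 at ZT4. Values below are normalised counts, the estimated counts scaled by TMM to a common library of 20457432 reads, and they compare libraries for one gene but not one gene with another. Levels at ZT2 and ZT4 are set side by side as a description, since an effect of kit or age shared by SD and LD remains in a single level and cancels only in the interaction. The leaf label was checked with 11 annotated genes of the Rubisco small subunit and the light-harvesting proteins of photosystem I, whose summed abundance was 70800.1 to 115768 TPM (transcript abundance scaled to a fixed sum per library) in the 12 libraries, while 2 leghemoglobin genes, markers of root nodules, summed to 0.306 to 5.01 TPM. The leaf marker sums were 73337 to 85948 TPM in SD against 108428 to 115768 TPM in LD at ZT2, and 70800.1 to 72619 TPM in SD against 98971 to 109893 TPM in LD at ZT4, and their part in the results was not tested. A pair of libraries carried more reads than the rest of their group in genes on unplaced scaffolds, SD ZT2 replicate 2 with 5.03% of its counts and LD ZT4 replicate 3 with 1.82%, against 1.07% to 2.86% in the others, and results that rest on LD ZT4 replicate 3 are given with and without it.

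The photoperiod effect changed between ZT2 and ZT4 in many leaf genes, about as often upward as downward. Of 30351 genes tested, 5084 (16.8%) passed edgeR's quasi-likelihood test of the interaction at an adjusted p under 0.05. The LD against SD ratio rose in 2605 genes (8.58%) and fell in 2479 (8.17%). Among the genes that passed, the median absolute change was 0.91 on the log2 scale, with quartiles of 0.58 and 1.56, and 2065 genes (6.8% of those tested) changed by more than 2-fold with a mean normalised count above 10, 1076 of them upward and 989 downward. The median interaction over all genes was 0.02. In what follows an interaction is the log2 LD against SD ratio at ZT4 minus that at ZT2, with its standard error (SE). With all 18 libraries in 1 fit, 1782 genes rose and 2612 fell, a share of rises of 40.6% against 51.2%, and with the TMM factors of that fit computed within each timepoint, an alternative chosen after seeing the data, 2182 rose and 2170 fell.

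The genes that passed were sorted by their LD against SD contrasts from the same fit, as a description. For 2341 (46.0%) the contrast passed at ZT4 alone, for 1129 (22.2%) at ZT2 alone, and for 674 (13.3%) at both timepoints in opposite directions. A contrast that did not pass may still hold a difference. The difference kept its direction and was larger at ZT4 for 586 genes (11.5%) and smaller for 189 (3.72%), and for the remaining 165 (3.25%) neither contrast passed. Of the 674 genes that turned over, 407 went from higher in LD at ZT2 to lower at ZT4 and 267 went the other way. As a background for single genes, SD and LD libraries did not overlap at either timepoint in 6530 of the 30351 genes tested. In 1361 of these the direction was opposite at ZT2 and ZT4, and 1272 of the 1361 passed. MtELF4 and MtTOC1a, both of the evening part of the clock, went from higher in LD at ZT2 to lower at ZT4. MtCBL11, a bHLH gene, went from lower to higher.

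**Figure D1:**
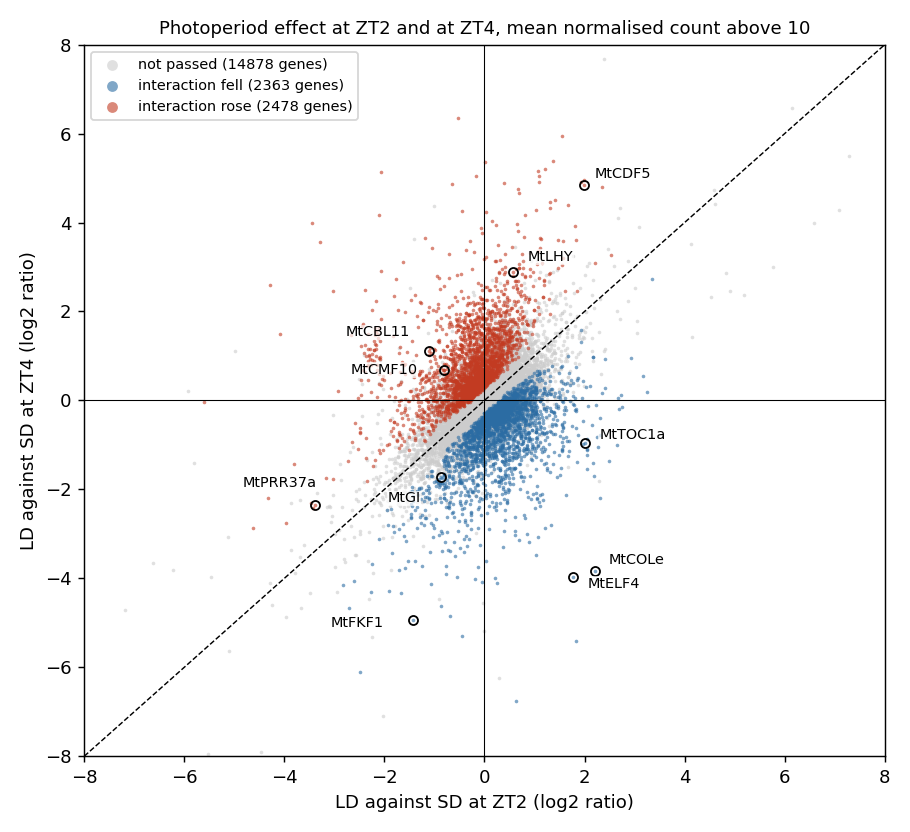
Log2 ratio of LD to SD at ZT2 (x axis) and at ZT4 (y axis), 1 point per gene with a mean normalised count above 10, in red where the interaction rose, in blue where it fell and in grey where it did not pass. The dashed line marks equal ratios, and 8 genes lie outside the axes. MtELF4 and MtCOLe lie far down on the right, higher in LD at ZT2 and lower at ZT4, while MtLHY and MtCDF5 lie above the line with a larger ratio at ZT4.

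A set of candidate genes for photoperiodic flowering, as the study had listed them, was read from the same fit. Of these, 136 could be tested and 51 (37.5%) passed, 26 upward and 25 downward, beside 16.8% of all genes tested and 24.5% of the 19719 genes with a mean normalised count above 10. Their median absolute interaction was 0.58, against 0.46 over all genes tested and 0.30 over those with a mean normalised count above 10. Of the 51, 13 had contrasts of opposite sign that both passed, 16 kept their direction with a larger difference at ZT4 and 6 with a smaller one. In 13 the contrast passed at ZT4 alone and in 3 at ZT2 alone. The 16.8% and 24.5% are also the background for the lists below, most of which hold few genes.

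**Figure D2:**
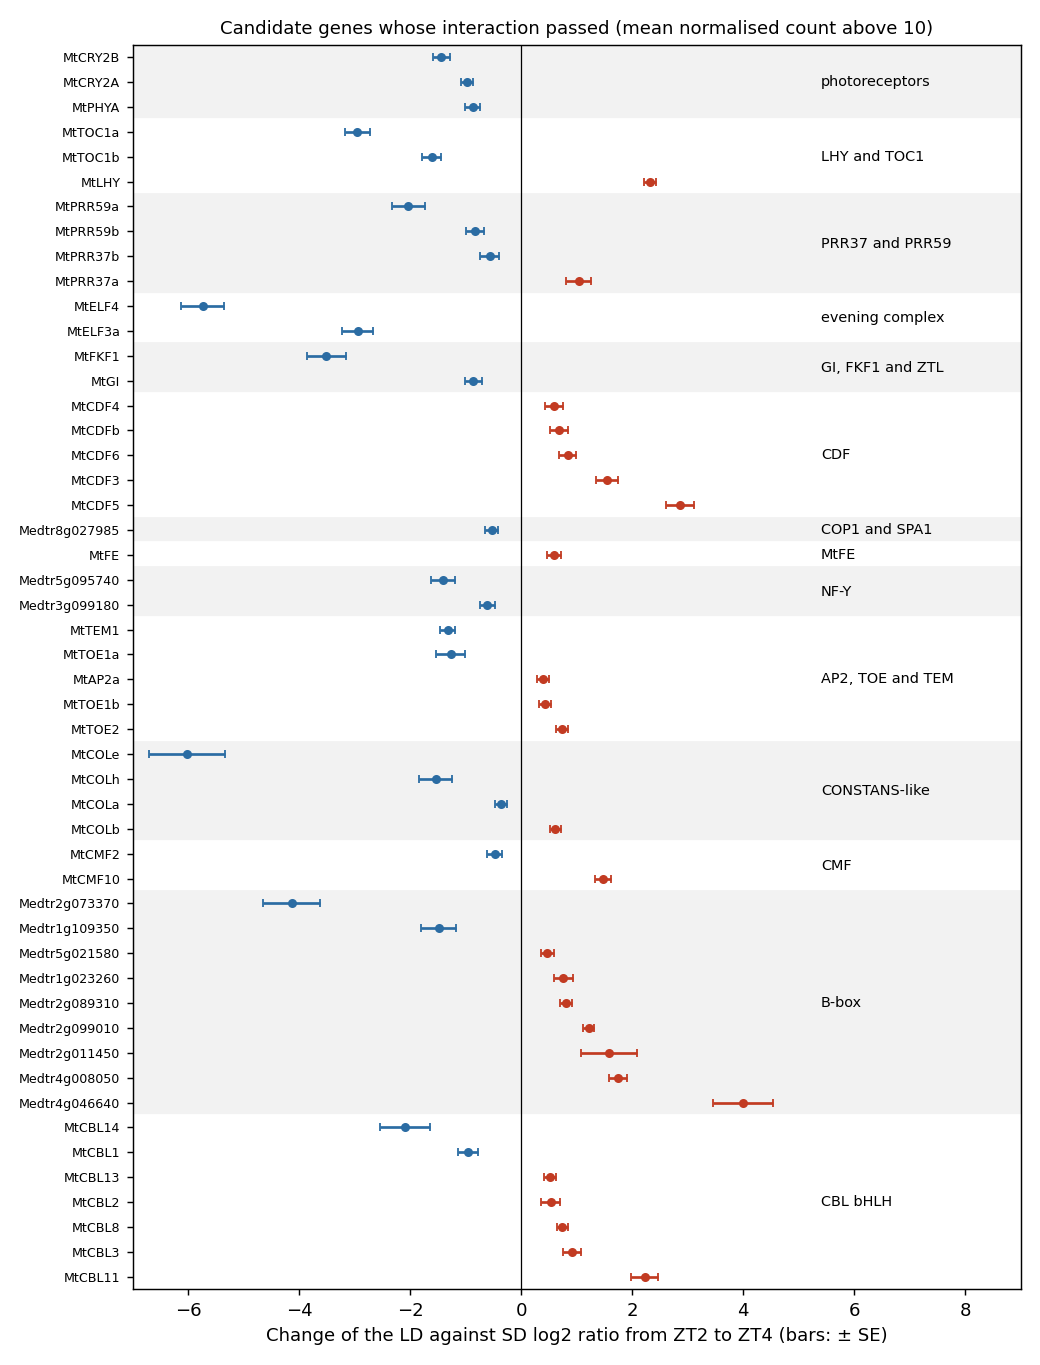
Change of the LD against SD log2 ratio from ZT2 to ZT4 (x axis) for each candidate gene that passed with a mean normalised count above 10, grouped by list, with bars of 1 SE either side. The evening complex, GI and FKF1, and photoreceptor members that passed all lie to the left of 0 and the CDF members that passed all lie to the right, while MtLHY stands to the right and MtTOC1a and MtTOC1b to the left.

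Among the photoreceptors, through which leaves read light, 3 of 5 tested genes passed (60%) and all 3 fell. MtPHYA, the phytochrome for far-red light and very weak light in Arabidopsis, had 1276, 1357 and 1676 in SD and 821, 837 and 951 in LD at ZT2, and 2624, 2552 and 2530.2 in SD and 906, 789.7 and 853 in LD at ZT4. Its LD libraries were lower at both timepoints without overlap, and the ratio fell further by 0.87 on the log2 scale (SE 0.13, edgeR adjusted p = 1.97e-04). The blue light receptor gene MtCRY2B had 249, 231 and 248 in SD and 77.5, 76.3 and 84.9 in LD at ZT2, and 398, 411 and 388 in SD and 55.6, 46.7 and 41.9 in LD at ZT4, with an interaction of -1.44 ± 0.15 SE and an edgeR adjusted p = 5.73e-06. Its homologue MtCRY2A had 1178, 1106 and 1224 in SD and 1383, 1441 and 1625 in LD at ZT2, and 2229.7, 2167 and 2132 in SD and 1515, 1262 and 1434 in LD at ZT4. MtCRY2A was therefore higher in every LD library than in every SD library at ZT2 and lower in every one at ZT4, with an interaction of -0.98 ± 0.11 SE (edgeR adjusted p = 1.57e-05). MtPHYB, with an interaction of 0.31 ± 0.12 SE, and MtCRY1, with -0.18 ± 0.10 SE, did not pass.

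The core clock genes LHY and TOC1 changed in opposite directions. MtLHY, the morning MYB factor, had 26034, 26813 and 24791 in SD and 37892, 37459.8 and 39650.0 in LD at ZT2, and 4138, 3903 and 3331 in SD and 28959, 27498 and 28024 in LD at ZT4. LD was higher at both timepoints, but the ratio of LD to SD grew 5.02-fold between them, as the SD libraries at ZT4 stood far below the other groups (interaction 2.33 ± 0.11 SE, edgeR adjusted p = 1.12e-09). MtTOC1a, a pseudo-response regulator that represses LHY in Arabidopsis, had 24.0, 29.0 and 31.1 in SD and 108, 121 and 110.1 in LD at ZT2, and 127, 124 and 167 in SD and 69.8, 68.7 and 77.5 in LD at ZT4. MtTOC1b had 84.5, 72.0 and 79.5 in SD and 164, 141 and 149 in LD at ZT2, and 184, 203 and 225 in SD and 125, 116 and 143 in LD at ZT4. For both TOC1 genes all LD libraries were above all SD libraries at ZT2 and below them at ZT4. The interaction was -2.96 ± 0.22 SE for MtTOC1a (edgeR adjusted p = 1.68e-07) and -1.62 ± 0.17 SE for MtTOC1b (edgeR adjusted p = 5.66e-06).

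**Figure D3:**
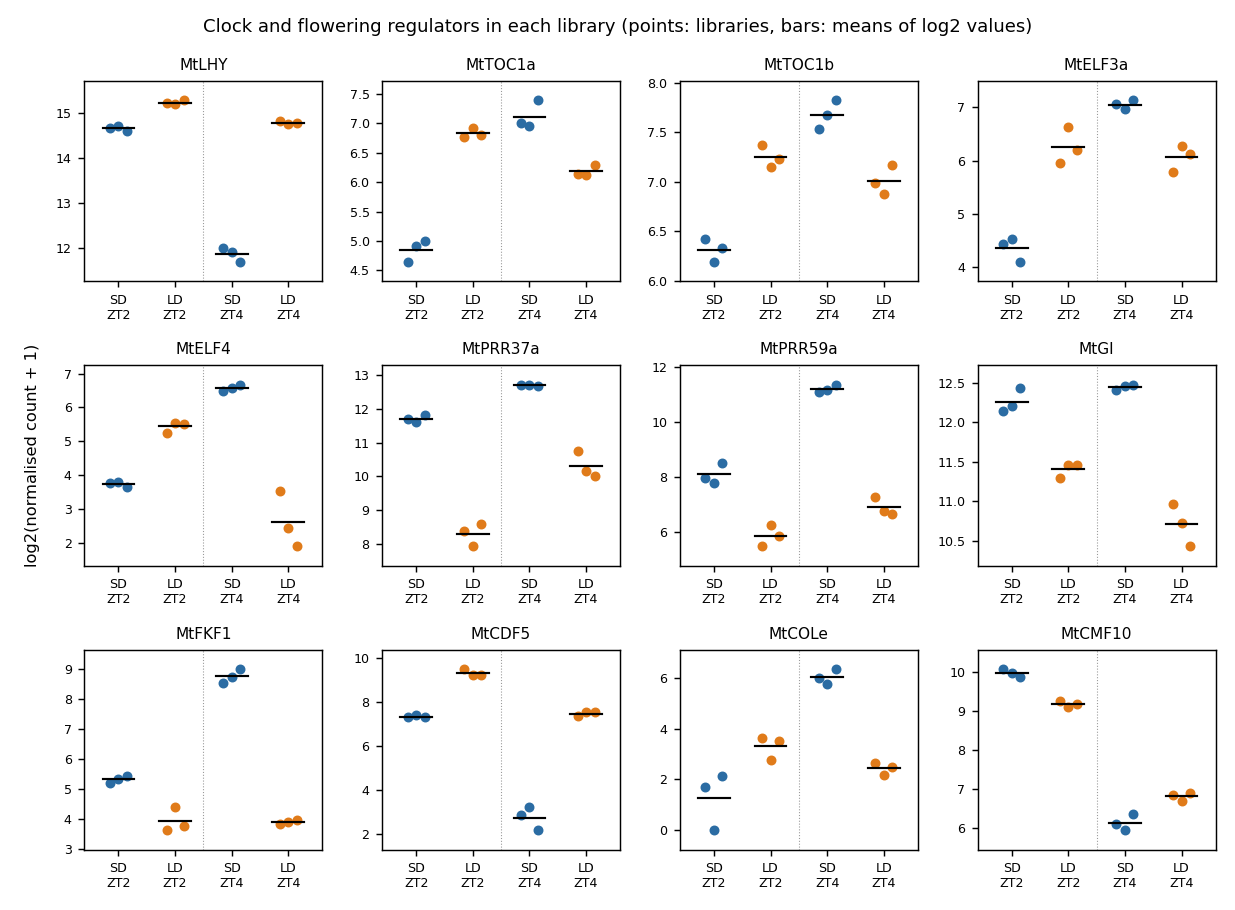
Normalised counts of 12 clock and flowering regulators on a log2 scale after adding 1 (y axis), 1 point per library, for SD (blue) and LD (orange) at ZT2 and ZT4 (x axis), with a bar at the mean of the 3 log2 values. In MtTOC1a, MtTOC1b, MtELF3a, MtELF4 and MtCOLe the LD points lie above the SD points at ZT2 and below them at ZT4, and in MtCMF10 the order is the reverse. For MtLHY and MtCDF5 the SD points at ZT4 lie far below the other groups.

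Of the evening complex genes, 2 of 9 tested passed (22.2%), and both fell by more than 2-fold. That share was near the 24.5% of all genes with a mean normalised count above 10. MtELF4 had 12.6, 12.8 and 11.5 in SD and 37.2, 45.8 and 44.7 in LD at ZT2, and 88.5, 94.2 and 101 in SD and 10.6, 4.41 and 2.73 in LD at ZT4. It turned over without overlap of the libraries at either timepoint, from 1.78 to -3.96 for the log2 ratio of LD to SD (interaction -5.74 ± 0.39 SE, edgeR adjusted p = 6.65e-08). MtELF3a, which in Arabidopsis bridges ELF4 and LUX, had 20.5, 22.1 and 16.1 in SD and 61.0, 97.4 and 72.3 in LD at ZT2, and 132, 124 and 139 in SD and 53.9, 76.7 and 68.4 in LD at ZT4. Its libraries were ordered in the same way as those of MtELF4 at both timepoints (interaction -2.95 ± 0.28 SE, edgeR adjusted p = 2.08e-06). MtELF3b, MtLUXa and MtLUXb did not pass, with interactions of 0.02 ± 0.15 SE, -0.96 ± 0.42 SE and 0.10 ± 0.14 SE.

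Of the daytime pseudo-response regulators 4 of 5 passed (80%). These 4 were lower in every LD library than in every SD library at both timepoints. Separation of SD and LD at both timepoints, in any direction, was seen in 6530 of the 30351 genes tested. In 3 of them the ratio fell further. MtPRR59a had 248, 221 and 366 in SD and 43.4, 74.0 and 56.2 in LD at ZT2, and 2219.9, 2303 and 2645 in SD and 155, 107 and 100.3 in LD at ZT4. Its LD against SD ratio fell 4.09-fold between ZT2 and ZT4 (interaction -2.03 ± 0.30 SE, edgeR adjusted p = 1.42e-04). MtPRR37a went the other way and had 3326, 3104 and 3598 in SD and 333, 243 and 379.8 in LD at ZT2, and 6709, 6744 and 6509.7 in SD and 1728, 1139.6 and 1034 in LD at ZT4. The difference of MtPRR37a was smaller at ZT4 (interaction 1.03 ± 0.23 SE, edgeR adjusted p = 0.00410). MtPRR59b had 325, 340.4 and 352 in SD and 151, 142 and 157 in LD at ZT2, and 1802, 1806 and 1848 in SD and 557, 375 and 427 in LD at ZT4, and its interaction was -0.83 ± 0.16 SE (edgeR adjusted p = 0.00178). MtPRR37b passed with -0.57 ± 0.17 SE (edgeR adjusted p = 0.0252), a call that did not hold when 1 library was left out (edgeR adjusted p = 0.0551 to 0.0773 without SD ZT2 replicates 1 or 2, LD ZT2 replicate 3, SD ZT4 replicates 2 or 3 or LD ZT4 replicates 2 or 3). MtPRR59c did not pass, with 0.13 ± 0.19 SE.

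GI and FKF1, which act together in the afternoon in Arabidopsis, both fell. MtFKF1, encoding a blue light receptor F-box protein, had 35.4, 39.5 and 42.6 in SD and 11.4, 19.96 and 12.6 in LD at ZT2, and 370.0, 418 and 506 in SD and 13.2, 14.1 and 14.6 in LD at ZT4. The LD libraries held similar low values at both timepoints while SD at ZT4 stood far above the other groups, and the LD against SD ratio fell 11.4-fold (interaction -3.51 ± 0.35 SE, edgeR adjusted p = 3.00e-06). MtGI had 4525, 4706 and 5496 in SD and 2515, 2798 and 2802 in LD at ZT2, and 5419, 5637 and 5683 in SD and 2002, 1686 and 1379 in LD at ZT4. LD was below SD in every MtGI library, with log2 ratios of -0.86 at ZT2 and -1.72 at ZT4 (interaction -0.86 ± 0.15 SE, edgeR adjusted p = 7.48e-04). MtZTL, the FKF1 relative that times clock protein turnover in Arabidopsis, did not pass (0.14 ± 0.11 SE).

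Of 14 tested CDF genes, Dof-type repressors of flowering in Arabidopsis, 5 passed (35.7%) and all 5 rose. Beside them stand 16.8% of all genes tested and 24.5% of those with a mean normalised count above 10. MtCDF5 had 155, 166 and 157 in SD and 716, 590.4 and 594 in LD at ZT2, and 6.26, 8.31 and 3.52 in SD and 161, 182 and 184 in LD at ZT4. SD at ZT4 stood far below the other groups, and the ratio of LD to SD rose 7.23-fold (interaction 2.85 ± 0.25 SE, edgeR adjusted p = 9.10e-07). MtCDF3 had 104, 122 and 100.2 in SD and 283, 285 and 231 in LD at ZT2, and 23.2, 19.4 and 22.0 in SD and 155, 144 and 166 in LD at ZT4, with an interaction of 1.55 ± 0.20 SE and an edgeR adjusted p = 4.01e-05. MtCDF6 had 135, 156 and 149.7 in SD and 438, 455 and 454 in LD at ZT2, and 58.1, 55.4 and 55.4 in SD and 359, 274 and 293 in LD at ZT4. Its ratio rose by 0.84 on the log2 scale (SE 0.16, edgeR adjusted p = 0.00127), and LD was higher in every library of MtCDF3, MtCDF5 and MtCDF6.

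MtCDF4, MtCDFb, MtCDF1 and MtCDF2 gave less certain results. MtCDF4 had 183, 166 and 158 in SD and 581, 575 and 682 in LD at ZT2, and 80.4, 65.5 and 79.1 in SD and 462, 356 and 416 in LD at ZT4. LD was higher at both timepoints, and the interaction of 0.59 ± 0.17 SE passed (edgeR adjusted p = 0.0212), but not when 1 library was left out (edgeR adjusted p = 0.0511 to 0.0885 without SD ZT2 replicate 1, LD ZT2 replicate 1 or SD ZT4 replicate 2) and not with all 18 libraries in 1 fit (edgeR adjusted p = 0.0979). MtCDFb passed with 0.68 ± 0.17 SE (edgeR adjusted p = 0.00901), and with 18 libraries it did not (edgeR adjusted p = 0.214).

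MtCDF1 had 14.8, 13.9 and 28.8 in SD and 1.03, 1.17 and 0 in LD at ZT2, and 163, 156 and 198 in SD and 0.883, 0 and 0.911 in LD at ZT4. Both LD groups were at the floor, taken here as at most 3 reads in each library, so no fold can be given, and edgeR did not call it (edgeR adjusted p = 0.155) while limma-voom called it as a fall (adjusted p = 0.00672). MtCDF2 had 3.42, 3.49 and 3.46 in SD and 22.7, 16.4 and 13.8 in LD at ZT2, and 0, 0 and 0.879 in SD and 2.65, 4.41 and 6.38 in LD at ZT4. The SD libraries of MtCDF2 held at most 3 reads each at both timepoints, and its interaction did not pass (edgeR adjusted p = 0.539). Of the 6 tested TOPLESS-like genes, corepressors that work with CDF proteins in Arabidopsis, 0 passed in edgeR, 1 had an unadjusted p under 0.05, and 1 passed in DESeq2 and 0 in limma-voom. Of the COP1 and SPA1 genes, whose products break down light signalling proteins in the dark, 1 of 4 passed (25%). This share was near the 24.5% of all genes with a mean normalised count above 10. The gene that passed was the SPA1-like Medtr8g027985 with -0.53 ± 0.12 SE (edgeR adjusted p = 0.00485).

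CONSTANS-like genes encode zinc finger proteins related to Arabidopsis CONSTANS, the direct activator of FT there. Of the 11 tested, 4 passed (36.4%), 1 upward and 3 downward. MtCOLe had 2.28, 0 and 3.46 in SD and 11.4, 5.87 and 10.3 in LD at ZT2, and 62.6, 52.6 and 80.0 in SD and 5.30, 3.53 and 4.56 in LD at ZT4. SD at ZT2 was at the floor with at most 3 reads in each library. The LD against SD ratio fell, but the fitted interaction of -6.03 ± 0.68 SE (edgeR adjusted p = 1.17e-05) is uncertain in size. No fold is given, as LD held at most 11 reads in a library at ZT2 and 6 at ZT4. MtCOLh had 89.0, 81.3 and 77.2 in SD and 85.8, 65.7 and 66.5 in LD at ZT2, and 66.1, 92.3 and 92.3 in SD and 26.5, 16.7 and 32.8 in LD at ZT4. The groups of MtCOLh overlapped at ZT2 and not at ZT4, where LD was lower (interaction -1.54 ± 0.29 SE, edgeR adjusted p = 0.00141). MtCOLb rose by 0.61 on the log2 scale (SE 0.10, edgeR adjusted p = 3.89e-04). MtCOLa passed with -0.37 ± 0.11 SE (edgeR adjusted p = 0.0240), but not with 1 library left out (edgeR adjusted p = 0.0574 to 0.0760 without SD ZT2 replicate 3, LD ZT2 replicate 3, SD ZT4 replicates 1 or 2 or LD ZT4 replicate 2).

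CMF genes carry the CCT domain of CONSTANS without its B-boxes, and 3 of 16 tested passed (18.75%), near the 16.8% of all genes tested. MtCMF10 had 1073, 1007 and 933 in SD and 609, 543 and 577 in LD at ZT2, and 67.9, 60.01 and 80.0 in SD and 113, 101 and 118 in LD at ZT4. It turned from lower in LD at ZT2 to higher at ZT4 without overlap of the libraries at either timepoint (interaction 1.48 ± 0.15 SE, edgeR adjusted p = 3.12e-06). MtCMF2 passed with -0.48 ± 0.14 SE (edgeR adjusted p = 0.0264), and did not with 1 library left out (edgeR adjusted p = 0.0572 to 0.0768 without SD ZT2 replicate 1, LD ZT2 replicate 2 or SD ZT4 replicates 2 or 3). The other member that passed had a mean normalised count under 10.

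The B-box zinc finger genes, several of which regulate light responses in Arabidopsis, had 9 of 12 tested members (75%) past the test, 7 upward and 2 downward. Medtr4g046640 had 37.7, 68.5 and 58.7 in SD and 139, 123 and 118 in LD at ZT2, and 1.79, 1.85 and 0.879 in SD and 83.0, 50.2 and 45.6 in LD at ZT4. SD at ZT4 was at the floor, and the ratio of LD to SD rose at least 8.497-fold (fitted interaction 4.00 ± 0.55 SE, edgeR adjusted p = 6.90e-05). Medtr2g073370 had 24.0, 32.5 and 47.2 in SD and 16.5, 29.3 and 18.4 in LD at ZT2, and 83.1, 123 and 136 in SD and 2.65, 5.29 and 3.65 in LD at ZT4. Its groups overlapped at ZT2, and at ZT4 every LD library was lower (interaction -4.14 ± 0.51 SE, edgeR adjusted p = 2.69e-05). Medtr4g008050 had 621, 622 and 603 in SD and 599.6, 597 and 554 in LD at ZT2, and 147, 154 and 150.3 in SD and 564, 499.7 and 372 in LD at ZT4, with an interaction of 1.74 ± 0.16 SE and an edgeR adjusted p = 1.58e-06. Medtr2g099010, annotated as salt tolerance-like, had 14413, 14119 and 14254 in SD and 16062, 16914 and 17556 in LD at ZT2, and 5771, 5680.4 and 5141 in SD and 15888, 15798 and 13932 in LD at ZT4. This abundant transcript was higher in every LD library at both timepoints, with the larger difference at ZT4 (interaction 1.22 ± 0.10 SE, edgeR adjusted p = 4.08e-07).

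The remaining B-box members that passed had interactions between -1.49 for Medtr1g109350 and 1.59 for Medtr2g011450. Medtr2g011450 (edgeR adjusted p = 0.0388) was lost with 1 library left out (edgeR adjusted p = 0.0501 to 0.135 without SD ZT2 replicates 1, 2 or 3, LD ZT2 replicates 1 or 2, SD ZT4 replicates 1 or 3 or LD ZT4 replicate 2), with thinned counts (edgeR adjusted p = 0.0660), with 18 libraries (edgeR adjusted p = 0.0949) and in DESeq2 (adjusted p = 0.0513). Medtr5g021580 passed with 0.47 ± 0.12 SE (edgeR adjusted p = 0.0103) and was lost with 18 libraries (edgeR adjusted p = 0.266).

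NF-Y subunits bind DNA together with CONSTANS in Arabidopsis, and 2 of 5 tested genes passed (40%), both downward. The NF-YB-like gene Medtr5g095740 had 177, 136 and 108 in SD and 209, 225 and 244 in LD at ZT2, and 492, 525 and 437 in SD and 272, 249 and 355 in LD at ZT4. It turned from higher to lower in LD without overlap (interaction -1.42 ± 0.21 SE, edgeR adjusted p = 1.84e-04). The NF-YC-like gene Medtr3g099180 had 986, 1020.0 and 863 in SD and 1613, 1886 and 1641 in LD at ZT2, and 1586, 1609 and 1473 in SD and 1602, 1917 and 1959 in LD at ZT4. LD was above SD in every library at ZT2 and the groups overlapped at ZT4 (interaction -0.61 ± 0.13 SE, edgeR adjusted p = 0.00315). MtFE, the homologue of a phloem MYB-like factor that Arabidopsis needs for FT expression and transport, had 412, 421 and 459.5 in SD and 416, 473 and 428 in LD at ZT2, and 295, 303 and 336 in SD and 437, 473 and 524 in LD at ZT4. Its libraries overlapped at ZT2, while LD was higher at ZT4 (interaction 0.59 ± 0.12 SE, edgeR adjusted p = 0.00300).

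Of the AP2, TOE and TEM genes, which repress FT in Arabidopsis, 5 of 8 passed (62.5%), 3 upward and 2 downward. MtTEM1 had 685, 641 and 669 in SD and 601, 576 and 640.2 in LD at ZT2, and 458, 471 and 502 in SD and 175, 203 and 140.4 in LD at ZT4. Its log2 ratio of LD to SD was -0.13 at ZT2 and -1.46 at ZT4 (interaction -1.33 ± 0.14 SE, edgeR adjusted p = 5.55e-06). MtTOE1a had 34.2, 25.6 and 40.3 in SD and 53.8, 45.8 and 52.8 in LD at ZT2, and 74.2, 76.6 and 79.1 in SD and 58.3, 39.7 and 46.5 in LD at ZT4. Its LD libraries were all higher at ZT2 and all lower at ZT4 (interaction -1.27 ± 0.27 SE, edgeR adjusted p = 0.00303). MtTOE2 had 3665, 3345 and 3568 in SD and 2341, 2023 and 2323 in LD at ZT2, and 2614, 2357 and 2539 in SD and 2897, 2572 and 2434 in LD at ZT4. The deficit in LD at ZT2 was not seen at ZT4, where the groups overlapped (interaction 0.73 ± 0.11 SE, edgeR adjusted p = 2.30e-04). MtTOE1b rose by 0.43 (SE 0.11, edgeR adjusted p = 0.00945) and MtAP2a by 0.39 (SE 0.11, edgeR adjusted p = 0.0179) on the log2 scale. The MtAP2a call was lost with 1 library left out (edgeR adjusted p = 0.0506 to 0.0552 without LD ZT2 replicate 3, SD ZT4 replicate 1 or LD ZT4 replicate 2) and with 18 libraries (edgeR adjusted p = 0.104).

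CBL bHLH genes encode relatives of the Arabidopsis CIB and BEE factors, the former of which bind cryptochrome. Of the 14 tested, 7 passed (50%), 5 upward and 2 downward. MtCBL11 had 274, 283 and 279 in SD and 115, 141 and 133 in LD at ZT2, and 41.1, 40.6 and 36.03 in SD and 104, 93.4 and 57.4 in LD at ZT4. Every LD library was below every SD library at ZT2 and above at ZT4, and the ratio rose 4.67-fold (interaction 2.22 ± 0.24 SE, edgeR adjusted p = 7.37e-06). MtCBL14 had 74.2, 49.96 and 54.1 in SD and 126, 107 and 131 in LD at ZT2, and 24.1, 30.5 and 36.9 in SD and 25.6, 13.2 and 4.56 in LD at ZT4. It was higher in LD at ZT2 in every library, and at ZT4 the ranges overlapped with lower values in LD on average (interaction -2.09 ± 0.45 SE, edgeR adjusted p = 0.00378). MtCBL1 had 414, 301 and 278 in SD and 371, 447 and 390.1 in LD at ZT2, and 1524, 1301 and 1334 in SD and 832, 791 and 989 in LD at ZT4. Its groups overlapped at ZT2 and LD was lower at ZT4 (interaction -0.95 ± 0.18 SE, edgeR adjusted p = 0.00138).

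MtCBL3 and MtCBL8 turned from lower to higher in LD, with interactions of 0.92 ± 0.16 SE (edgeR adjusted p = 7.48e-04) and 0.74 ± 0.10 SE (edgeR adjusted p = 8.06e-05). MtCBL13 passed with 0.52 ± 0.10 SE (edgeR adjusted p = 0.00221). MtCBL2 passed with 0.53 ± 0.17 SE (edgeR adjusted p = 0.0444) and was lost with 1 library left out (edgeR adjusted p = 0.0633 to 0.146 without SD ZT2 replicates 1 or 2, LD ZT2 replicates 1 or 3, SD ZT4 replicates 2 or 3 or LD ZT4 replicates 2 or 3) and with 18 libraries (edgeR adjusted p = 0.160). Of the 9 tested PIF-type bHLH genes, which in Arabidopsis bind phytochrome, 0 passed in edgeR, DESeq2 or limma-voom, and 3 had an unadjusted p under 0.05 in edgeR.

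The FT-like genes are the output of the pathway, and no SD library held more than 2 reads for MtFTb1, MtFTb2 or MtFTa1. MtFTb1 had 0, 0 and 0 in SD and 6.20, 5.87 and 8.03 in LD at ZT2, and 0, 0 and 0 in SD and 141, 170.1 and 168 in LD at ZT4, and MtFTb2 had 0, 0 and 0 in SD and 0, 3.52 and 0 in LD at ZT2, and 0, 0 and 0 in SD and 82.1, 84.6 and 96.6 in LD at ZT4. Both SD groups held 0 reads for both genes, so the ratio has no finite base and edgeR gave an adjusted p = 1.000 for each. DESeq2 gave adjusted p = 0.0240 and limma-voom 7.06e-05 for MtFTb1, and 0.00405 and 1.09e-04 for MtFTb2. The LD libraries of MtFTb1 and MtFTb2 at ZT4 stood above those at ZT2, but as both SD groups were at 0 this difference is one between experiments, in which kit, age and days in LD cannot be told apart from time. How reads were split between the similar MtFTb1 and MtFTb2 is uncertain.

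MtFTa1, a floral activator in this species, had 0, 0 and 1.15 in SD and 24.8, 41.1 and 42.5 in LD at ZT2, and 1.79, 0 and 0.879 in SD and 123, 95.2 and 72.0 in LD at ZT4. LD was above SD in every library at both timepoints, both SD groups were at the floor, and the interaction did not pass (edgeR adjusted p = 1.000). MtFTa2 had 17.1, 13.9 and 20.7 in SD and 4.13, 15.3 and 5.74 in LD at ZT2, and 34.9, 33.2 and 29.9 in SD and 20.3, 13.2 and 16.4 in LD at ZT4, and its interaction of 0.09 ± 0.47 SE did not pass either (edgeR adjusted p = 0.982). MtFTa3 was at 0 in all 12 libraries. Of the 4 tested FT-like genes 0 thus passed in edgeR, 0 had an unadjusted p under 0.05 there, and 2 passed in both DESeq2 and limma-voom. Of the 6 SOC1 and FUL genes, MADS-box flowering genes, 0 passed in edgeR, DESeq2 or limma-voom and 1 had an unadjusted p under 0.05 in edgeR. MtE1, a homologue of the soybean flowering repressor E1, did not pass, with -0.74 ± 0.58 SE.

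Of 20 other regulators that the study had named, 5 (25%) passed, 3 upward, beside 16.8% of all genes tested. The share was close to the 24.5% of all genes with a mean normalised count above 10, but the 20 were not filtered by count. The DOF gene Medtr3g091820 had 142, 130.1 and 87.5 in SD and 129, 119 and 114 in LD at ZT2, and 59.0, 81.2 and 69.4 in SD and 137, 159 and 139 in LD at ZT4. Its groups overlapped at ZT2 and LD was higher at ZT4 (interaction 1.04 ± 0.23 SE, edgeR adjusted p = 0.00429). The Ran-binding zinc finger gene Medtr6g069400 had 126, 151 and 177 in SD and 86.8, 45.8 and 81.5 in LD at ZT2, and 670.3, 542 and 633 in SD and 56.5, 74.9 and 141 in LD at ZT4, with an interaction of -1.69 ± 0.37 SE and an edgeR adjusted p = 0.00377. The ovate repressor gene Medtr7g105780 passed with -0.59 ± 0.17 SE (edgeR adjusted p = 0.0258), but not with 18 libraries (edgeR adjusted p = 0.117) nor with 1 library left out (edgeR adjusted p = 0.0513 to 0.0876 without SD ZT2 replicates 2 or 3, LD ZT2 replicates 1 or 3, SD ZT4 replicates 1 or 3 or LD ZT4 replicates 2 or 3).

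Medtr4g113840, of the Ran-binding zinc finger type, and Medtr3g101520, with a B3 domain, had few reads, at most 21 and 8 in a library, and SD at ZT4 was at the floor for both. For Medtr4g113840, with at most 4 reads in SD at ZT2, and for Medtr3g101520, with at most 4 in LD at ZT2, a further group was near the floor and no fold is given. The ratio rose for both (edgeR adjusted p = 0.0216 and 0.0228). The call of Medtr4g113840 was lost with 1 library left out (edgeR adjusted p = 0.0616 to 0.118 without SD ZT2 replicate 2 or SD ZT4 replicates 1 or 3), as was that of Medtr3g101520 (edgeR adjusted p = 0.0555 to 0.0619 without SD ZT2 replicate 3, SD ZT4 replicates 1 or 3 or LD ZT4 replicate 2).

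The 8 largest falls were taken over all genes with a mean normalised count above 10 in each of the 4 groups. All 8 had SD at ZT4 above the other 3 groups in every library. The order of those 3 groups differed between these 8 genes. They are Medtr3g081580 (-4.50), Medtr6g051780 (-4.08), Medtr1g038430 (-4.08), Medtr4g069080 (-3.89), Medtr5g013640 (-3.84), Medtr6g039440 (-3.83), Medtr4g070080 (-3.83) and Medtr4g010140 (-3.76), with the log2 interaction in parentheses. Their edgeR adjusted p ran from 6.46e-10 to 3.26e-07. As annotated, Medtr6g051780 encodes a putative transmembrane protein, Medtr4g069080 a cytochrome c biogenesis protein Ccs1, Medtr6g039440 a sesquiterpene synthase and Medtr4g070080 an RNA-binding protein.

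Medtr4g010140, annotated as a protein of the chlorophyll fluorescence rise seen after light, had 1239.7, 921 and 1216 in SD and 3219, 3698 and 3522 in LD at ZT2, and 7728, 7458 and 7998 in SD and 2061, 1695 and 1547 in LD at ZT4. It was higher in LD at ZT2 and lower at ZT4 in every library (SE 0.16, edgeR adjusted p = 6.46e-10). Medtr1g038430, a DnaJ heat shock domain gene, had 52.5, 55.8 and 56.4 in SD and 115, 143 and 126 in LD at ZT2, and 570.2, 550.2 and 619 in SD and 61.8, 88.1 and 89.3 in LD at ZT4, in the same order. The beta-amylase gene Medtr5g013640, of starch breakdown, had 140.4, 172 and 229 in SD and 147, 137 and 192 in LD at ZT2, and 705, 812 and 823 in SD and 56.5, 52.0 and 34.6 in LD at ZT4. Its groups overlapped at ZT2, and at ZT4 LD was below SD in every library (SE 0.25, edgeR adjusted p = 4.70e-08).

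**Figure D4:**
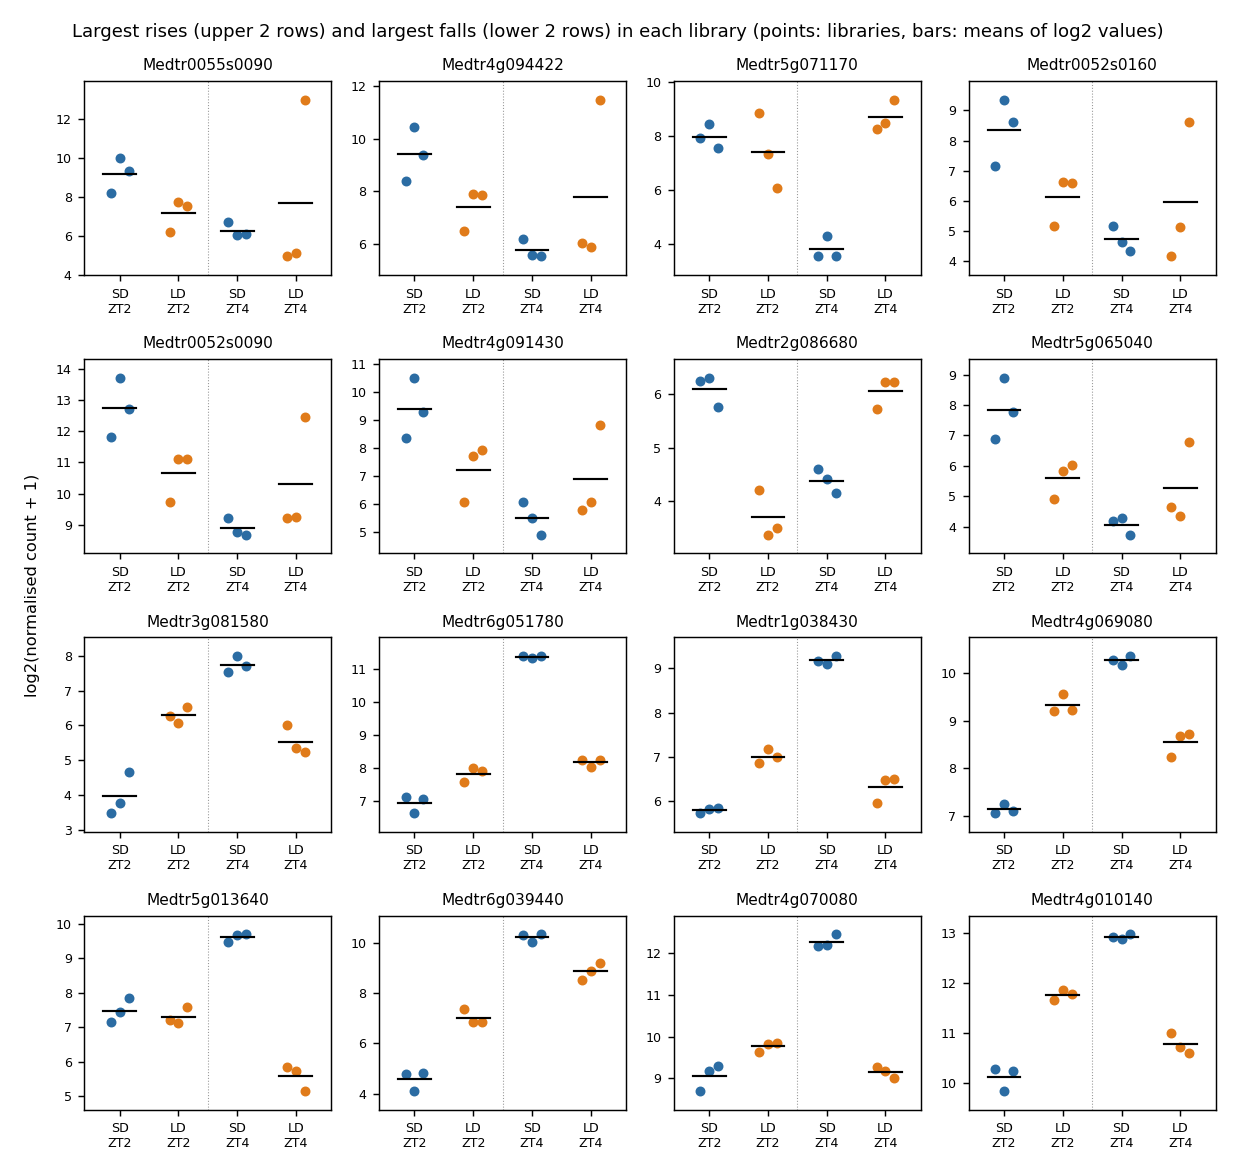
Normalised counts on a log2 scale after adding 1 (y axis) in each library of SD (blue) and LD (orange) at ZT2 and ZT4 (x axis) for the 8 largest rises, in the upper rows, and the 8 largest falls, in the lower rows, with a bar at the mean of the 3 log2 values. In the falls the SD points at ZT4 lie above all others. In 6 of the 8 rises 1 LD library at ZT4, replicate 3, lies far above the other LD libraries of that timepoint.

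The 8 largest rises were of another kind, as 6 of them rested on LD ZT4 replicate 3. Medtr0055s0090 had 295, 1049 and 643 in SD and 73.4, 216 and 188 in LD at ZT2, and 104, 64.6 and 66.8 in SD and 30.0, 34.4 and 8216 in LD at ZT4. Its interaction was 7.20 ± 1.93 SE with all libraries (edgeR adjusted p = 0.0156) and 0.79 without that library (edgeR adjusted p = 0.625), and it was also lost without SD ZT4 replicate 2 (0.0616) or 3 (0.0555). Without LD ZT4 replicate 3 the interaction of Medtr4g094422 moved from 6.28 to 2.26 (edgeR adjusted p = 0.0971), that of Medtr0052s0160 from 4.85 to 2.36 (edgeR adjusted p = 0.145) and that of Medtr4g091430 from 4.27 to 2.61 (edgeR adjusted p = 0.0879). Medtr0052s0090 moved from 4.42 to 2.48 and Medtr5g065040 from 4.11 to 2.89, and both still passed. With all libraries in limma-voom, the calls of Medtr0055s0090 (adjusted p = 0.405), Medtr4g094422 (0.183), Medtr0052s0160 (0.133) and Medtr4g091430 (0.0644) were lost as well.

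In these genes SD ZT2 replicate 2 also held the highest value of its group. The same pair of libraries had the highest share of reads in scaffold genes within their own groups, as given above. Of the 1017 scaffold genes tested 122 (11.996%) passed, a smaller share than the 16.8% of all genes tested. Of the genes that passed with a mean normalised count above 10, 18 had LD ZT4 replicate 3 more than 4-fold above both other LD libraries at ZT4, and 11 of the 18 were scaffold genes. The part of library composition in these rises was not tested.

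The remaining pair of rises passed under each alternative tried, each library left out in turn included. Medtr5g071170 had 241, 351 and 187 in SD and 458, 162 and 66.5 in LD at ZT2, and 10.7, 18.5 and 10.55 in SD and 306, 361 and 652 in LD at ZT4. Its groups overlapped at ZT2, and at ZT4 SD stood far below LD (interaction 5.21 ± 0.81 SE, edgeR adjusted p = 2.25e-04). Medtr2g086680 had 75.3, 77.8 and 53.0 in SD and 17.6, 9.39 and 10.3 in LD at ZT2, and 23.2, 20.3 and 16.7 in SD and 52.1, 74.0 and 73.8 in LD at ZT4, with LD below SD at ZT2 and above it at ZT4 in every library (interaction 4.16 ± 0.36 SE, edgeR adjusted p = 7.45e-07). The sources used here give no annotation for either.

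Genes with 1 or more groups at the floor gave few calls, 207 of 8766 (2.36%), against 4877 of 21585 genes (22.6%) with no group there. Among them the cytochrome P450 gene Medtr4g025970 was read almost only in SD at ZT4, with 0, 2.32 and 1.15 in SD and 3.101, 2.35 and 0 in LD at ZT2, and 93.8, 92.3 and 144 in SD and 1.77, 0 and 0.911 in LD at ZT4. As its other 3 groups were at the floor no fold can be given (edgeR adjusted p = 0.00207). The MATE efflux gene Medtr3g099720 had 1.14, 3.49 and 2.30 in SD and 6.20, 7.04 and 1.15 in LD at ZT2, and 51.8, 38.8 and 52.7 in SD and 4.42, 3.53 and 4.56 in LD at ZT4. Its ratio of LD to SD fell (edgeR adjusted p = 4.03e-04), as did that of the transmembrane protein gene Medtr5g091310 (edgeR adjusted p = 2.77e-04). No fold is given for either, as SD at ZT2 was at the floor and LD at ZT2 held at most 6 and 4 reads. In both of them SD at ZT4 was again the high group.

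The 4 largest rises with a group at the floor were Medtr7g116500, Medtr1g015165, Medtr4g478220 and Medtr7g116510. Medtr4g478220 had 42.2, 44.1 and 40.3 in SD and 2.07, 0 and 0 in LD at ZT2, and 25.9, 30.5 and 29.9 in SD and 30.0, 27.3 and 26.4 in LD at ZT4. Among the groups compared it was near absent only in LD at ZT2, and its ratio rose at least 13.5-fold (edgeR adjusted p = 3.05e-06). At dawn (ZT0), in the libraries described below, LD was also far below SD, with a log2 ratio of -7.59 (edgeR adjusted p = 0.00234). Medtr1g015165 and Medtr7g116500 had SD at ZT4 at the floor. The ratio of Medtr1g015165 rose (edgeR adjusted p = 1.34e-04). No fold is given, as LD at ZT2 held at most 4 reads and LD at ZT4 had 12.4, 8.81 and 36.5, highest in replicate 3. The fitted interaction of Medtr1g015165 moved from 6.86 to 6.01 without LD ZT4 replicate 3. Medtr7g116500 rose at least 4.84-fold (edgeR adjusted p = 0.00495). Medtr7g116510, whose identifier follows that of Medtr7g116500, rose at least 9.74-fold (edgeR adjusted p = 0.0216), a call lost with 1 library left out (edgeR adjusted p = 0.0509 to 0.0805 without SD ZT2 replicate 3, SD ZT4 replicates 1, 2 or 3 or LD ZT4 replicates 2 or 3) and in limma-voom (adjusted p = 0.0872).

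The 6 libraries of SD and LD at ZT0, made with the ScriptSeq kit from plants of 13 days, took no part in the interaction and gave a further readout of the same genes at dawn. They belong to the same experiment as the ZT2 libraries, and the ZT4 libraries to another. An LD against SD effect particular to the experiment of ZT0 and ZT2 would show at both, and its part was not tested. Genes whose LD against SD ratio fell from ZT2 to ZT4 were often already higher in LD at ZT0. Of 2479 such genes, 1028 (41.5%) were higher in LD at ZT0 in edgeR and 435 (17.5%) lower, and the median log2 ratio was 0.35. Of 2601 genes whose ratio rose, 428 (16.5%) were higher and 595 (22.9%) lower, with a median of -0.09. The background was 14.6% higher and 13.2% lower over the 27897 genes tested in both, and 19.99% and 16.7% over those with a mean normalised count above 10, of which there were 19711.

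Some clock genes showed this succession and others did not. On the log2 scale LD exceeded SD for MtELF4 by 3.57 at ZT0 and 1.78 at ZT2 and was at -3.96 at ZT4. For MtTOC1a the 3 values were 4.38, 2.00 and -0.95, and for MtELF3a they were 3.74, 1.96 and -0.99. MtLHY ran the other way, with -1.84, 0.57 and 2.89. MtFKF1 was at 3.31 at ZT0, -1.42 at ZT2 and -4.94 at ZT4. MtGI, MtPRR59b and MtPRR37b also fell from ZT2 to ZT4 but were lower in LD at ZT0, at -3.31, -2.29 and -2.02. MtPRR59a, which fell too, did not differ at ZT0 (0.31, edgeR adjusted p = 0.532). The ratios at ZT0 come from a fit of those 6 libraries alone.

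**Figure D5:**
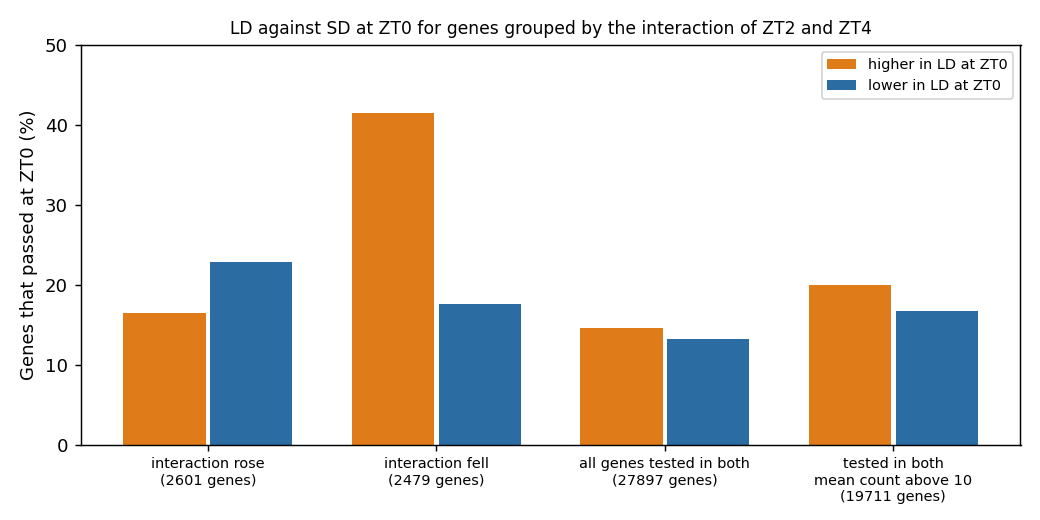
Share of genes (y axis, in percent) that were higher (orange) or lower (blue) in LD at ZT0 at an adjusted p under 0.05, for genes whose interaction of ZT2 and ZT4 rose or fell, for all genes tested in both fits and for those of them with a mean normalised count above 10. The bar of genes higher in LD at ZT0 reaches 41.5% among the genes that fell, against 14.6% over all genes.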

How the data were processed

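RNA-Seq was run on pooled first trifoliate leaves, and 12 of 18 libraries were used, 3 each of SD and LD at ZT2 and ZT4, grouped by the labels. Estimated counts per gene were deposited: the authors trimmed the reads, ran Salmon 0.8.2 (per the submitters' processing notes) on Mt4.0v2 transcripts and summed the transcripts of a gene with tximport, without scaling. The TPM values deposited by the authors come from the same quantification. Salmon shares reads among similar transcripts by estimate, so near-identical genes are uncertain.

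Estimated counts were rounded. Genes with a total above 1 over the 12 libraries were kept, 30351 of 50444. Counts were scaled by TMM and fitted with edgeR 4.0.16 in R 4.3.3 (quasi-likelihood, photoperiod, time and their interaction). Benjamini-Hochberg adjustment ran over all genes tested, and the threshold was 0.05. Log2 values used a prior count of 0.125, and the SE is the absolute log2 value over the square root of F. A group with at most 3 reads in every library was at the floor, and folds against it are bounds computed with 3 reads per library. Contrasts within a timepoint were adjusted over both timepoints together. ZT0 was fitted alone in the same way.

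The genes named were the candidates of the study that passed with a mean normalised count above 10, the FT-like genes, MtFKF1, MtGI and MtCDF1, 2 and 4 whatever their result, other named regulators that passed, the 8 largest rises and falls among genes above 10 in each group, and the 4 largest each way with a group at the floor. Members and lists were chosen with earlier results of these data known. Gene descriptions were taken from the study's tables. Lists by annotation keyword were not used, as 0 identifiers matched the RefSeq gene table, and promoter and protein sequences were not used here.

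Same-numbered SD and LD libraries came from different plants, so replicate numbers were not taken to pair samples. Correlations of their deviations from group means were 0.07, 0.07 and 0.16 at ZT2 and -0.09, 0.01 and 0.03 at ZT4. Pairs of unlike number gave -0.12 to 0.05 at ZT2, all below those of like number, and -0.10 to 0.10 at ZT4. A fit with a replicate block is given at the end. Library pairs of a group differed by 2.40 to 39.6 in chi-square per gene, above sampling noise, so none was counted as a repeat. Biological variation between replicates (edgeR's common coefficient) was 0.093 at ZT2 and 0.110 at ZT4 which is the counting error of 115 and 82.6 reads, so counting error was the larger part for genes with fewer reads. The fits were checked on simulated data, where edgeR called most of the changes put in, each with the right sign, and limma-voom made many more false calls than edgeR or DESeq2. Changes were put only into genes above the floor in every group, with the same variation for all genes and no library standing apart. The check therefore does not cover genes at the floor or calls that rest on a single library. Alternatives were DESeq2 1.42.0, limma 3.58.1 (voom), other scalings, a length offset, other filters, all 18 libraries, a replicate block, thinned counts and each library left out, and their effects are given at the end.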

Additional observations from a re-analysis of the deposited data

Results flagged for a closer look

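In 23 of the genes named, the LD against SD contrasts at ZT2 and at ZT4 both passed with opposite signs and the interaction, the test of the difference itself, passed in edgeR. These are photoperiod effects that differ between the timepoints, given here as log2 interactions.

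From higher in LD at ZT2 to lower at ZT4 went MtCRY2A (-0.98), MtTOC1a (-2.96), MtTOC1b (-1.62), MtELF3a (-2.95), MtELF4 (-5.74), the NF-YB-like gene Medtr5g095740 (-1.42), MtTOE1a (-1.27), MtCOLe (-6.03, a fitted value with 1 group at the floor) and MtCBL14 (-2.09, with overlapping groups at ZT4). The same held for Medtr3g081580 (-4.50), the transmembrane protein gene Medtr6g051780 (-4.08), the DnaJ domain gene Medtr1g038430 (-4.08), the Ccs1 gene Medtr4g069080 (-3.89), the sesquiterpene synthase gene Medtr6g039440 (-3.83), the RNA-binding protein gene Medtr4g070080 (-3.83) and Medtr4g010140 (-3.76).

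From lower to higher in LD went MtCMF10 (1.48), MtCBL3 (0.92), MtCBL8 (0.74), MtCBL11 (2.22), Medtr2g086680 (4.16), Medtr1g015165 (6.86, a fitted value with 1 group at the floor) and Medtr0052s0090 (4.42, and 2.48 without LD ZT4 replicate 3). For Medtr0052s0090 the groups overlapped at ZT4, with 598, 435 and 411 in SD and 591, 604 and 5644 in LD, so its higher mean in LD there rests mostly on that replicate. With 3 libraries a group, no test for a single library standing apart was made.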

How the results depend on the processing

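Over the 5 counts, the alternatives moved only 1 by more than 1.5 times. Of genes past the test with a mean normalised count above 10, 1099 exceeded an absolute log2 interaction of 1.5, against 2065 with the limit of 1, since that limit is stricter by construction. Leaving out each library in turn gave 4155 to 5583 genes passed, 2047 to 2767 that rose, 2053 to 2816 that fell, 1839 to 2244 over 2-fold and 45 to 52 candidates. DESeq2 called 4851 genes and limma-voom 5143, and all 18 libraries in 1 fit 4394, with 937 of the 5084 calls lost there. No gene called by both the main test and an alternative changed its direction.

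With the replicate block, by number within timepoint, 5228 genes passed, 2679 upward and 2549 downward, 2189 over 2-fold and 51 candidates, and no call of a named gene changed. The numbers were not taken to pair samples, and the 6 correlations of same-numbered libraries are given with the processing.

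Of 84 named genes tested, 64 stayed on the same side of the threshold with the same direction under each alternative that tested them, and 20 lost or gained a call under 1 or more, with 0 reversed. The losses when 1 library was left out came to between 0 and 9 genes a library. Voom with library weights, an alternative chosen after seeing the data, lost 4 of these calls and added 3. MtFTa1, MtFTb1, MtFTb2 and other genes with a group at the floor had at most 3 reads per library there, so depth limits the size of their interaction. Kit, age and days in LD differ between ZT2 and ZT4 in all libraries, so no fit can separate them from time where they act differently in SD and LD.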

Other observations

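The interaction calls varied with transcript length and abundance. Among genes with a mean normalised count above 10, 549 rose and 429 fell in the quartile group with the shortest effective length, with a median log2 interaction of 0.04, and 545 rose and 733 fell in the one with the longest, with a median of -0.03. The number called with an effective length offset per library was 5108, against 5084 without it. The share that passed was 15.0% in the quartile group with the lowest mean count and 34.7% in the highest.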
